A study of Mus musculus with 42 samples.

Results

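RNA polymerase II (Pol II) ChIP-seq was compared between Nr4a1 knockout (KO) and wild-type (WT) mouse bone marrow-derived macrophages (BMDMs) to ask where the first hour of lipopolysaccharide (LPS) changes Pol II differently in the 2 genotypes. The comparison used 12 of the 42 libraries of the series, 3 each of KO at 0 h, KO at 1 h, WT at 0 h and WT at 1 h, chosen by their labels and not by any measured value. The fit behind the p-values also held the 6 Pol II libraries at 18 h of LPS, 3 per genotype, which share in the estimate of the spread. For every protein-coding gene the LPS change in WT (1 h minus 0 h) was subtracted from the LPS change in KO, on a log2 scale. This difference is called the interaction below, and a positive value means that Pol II rose more, or fell less, in KO. Cells came from male C57Bl6/J mice of 6 to 12 weeks, were grown for 7 days in L929-conditioned medium, and received LPS at 100 ng/ml or none (0 h). The label of the KO samples gives the genotype only as cre. By the study's methods, these were whole-body knockouts from floxed Nr4a1 mice crossed to CMV-Cre animals, with the Cre bred out afterwards, and the WT mice were littermates. All samples are primary macrophages. The study's methods speak of biological replicates where ChIP-seq peaks were merged, but nothing in the labels says that the 3 libraries of a group came from separate animals. The p-values thus measure the spread between these libraries, which may be technical.

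Nr4a1 (Nur77) is an orphan nuclear receptor and an immediate early gene of macrophages. LPS is sensed by TLR4 with its co-receptors, and the signal runs through MyD88 to NF-kB and MAP kinases and through TRIF to IRF3 and interferon beta. Pol II is paused just after many starts and is released within minutes of the stimulus, so Pol II over a gene body reads transcription earlier than mRNA does.

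Values are normalized tags, that is reads in called Pol II regions per 10 M reads of a library, summed over a gene and 500 bp on either side, with a region shared out by its overlap. The 12 libraries held 21.7 to 36.1 M tags, and the least number of tags that could make a 500 bp window a region was 13 to 19. No region list gave reads outside its regions, so a gene without a region is listed at 0, which is not evidence that it lacks Pol II. All 13 macrophage markers looked at had regions in all 12 libraries, and their summed level was 28811 to 31119 tags in KO at 0 h, 33329 to 34559 in KO at 1 h, 25756 to 30229 in WT at 0 h and 40506 to 42320 in WT at 1 h. Pax5 (B cells), Cd3e, Cd3g and Cd2 (T cells), Ly6g, Elane, Mpo and S100a9 (neutrophils) and Col1a1, Col1a2, Col3a1 and Dcn (stroma) were listed at 0 in all 12 libraries. Other markers had regions in at least 1 library, 3 of 5 for B cells, 2 of 5 for T cells, 2 of 6 for neutrophils, 1 of 5 for stroma, 3 of 5 for dendritic cells and 1 of 5 for erythroid cells. The summed neutrophil markers were at 39.3 to 45.3 tags in KO and 15.9 to 22.6 in WT at 0 h, and at 17 or below at 1 h. The summed dendritic markers were at 295.1 to 322.7 tags in KO and 257.6 to 336.8 in WT at 0 h, and at 1142 to 1282 and 1159 to 1374 at 1 h. The part of these markers in the results was not tested. In bulk libraries such as these, fewer cells of a kind and less Pol II per cell cannot be told apart.

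Nr4a1 itself had 87.8, 76.1 and 70.2 normalized tags in the KO libraries at 0 h and 33.5, 39.0 and 36.6 at 1 h. In WT it had 189, 188 and 208 at 0 h and 25.5, 23.0 and 30.4 at 1 h. KO was thus the lower genotype at 0 h with no overlap, while at 1 h KO and WT differed by 0.36 on the log2 scale (limma adjusted p = 0.10). Pol II on Nr4a1 fell with LPS in both genotypes, by 0.92 in KO and by 2.5 in WT, an interaction of 1.58 ± 0.24 (SE, adjusted p = 2.4e-04). The call was lost with a pseudocount of 1 and in the 1 kb window around the start, and the value was -0.39 when regions that overlap an input region were left out.

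Of 13426 genes tested, 569 (4.24%) passed an adjusted p of 0.05 and a log2 difference of 1. The interaction was positive for 417 (3.11%) and negative for 152 (1.13%). On the deposited scale more genes fell than rose within the hour in both genotypes. The median LPS change was -0.61 in KO, where 6143 genes (45.8%) were called, 1481 (11%) rose and 4662 (34.7%) fell, and -0.80 in WT, where 7099 (52.9%) were called, 1365 (10.2%) rose and 5734 (42.7%) fell. The median interaction over all genes was 0.17, and the balance of directions depends on how libraries are put on 1 scale. With each library centred on its median gene, every LPS change was higher, by 0.57 in KO and 0.80 in WT, and 2388 genes rose and 2515 fell in KO against 2638 and 2497 in WT. With quantile normalization 2132 rose and 2391 fell in KO, and 2177 and 2482 in WT. A rise or fall named below is on the deposited scale. Centring lowered every interaction by 0.23 and the calls became 455 (3.39%), of which 183 (1.36%) were positive and 272 (2.03%) negative, quantile normalization gave 223 and 204, and dropping every region with an input overlap gave 111 and 143 of 8183 genes. All 152 negative calls and 183 of the 417 positive ones were also called after centring. Leaving out replicate 2 of every group gave 345 calls (210 positive and 135 negative). Fitting the 12 libraries at 0 and 1 h alone gave 522 (385 positive and 137 negative).

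**Figure D1:**
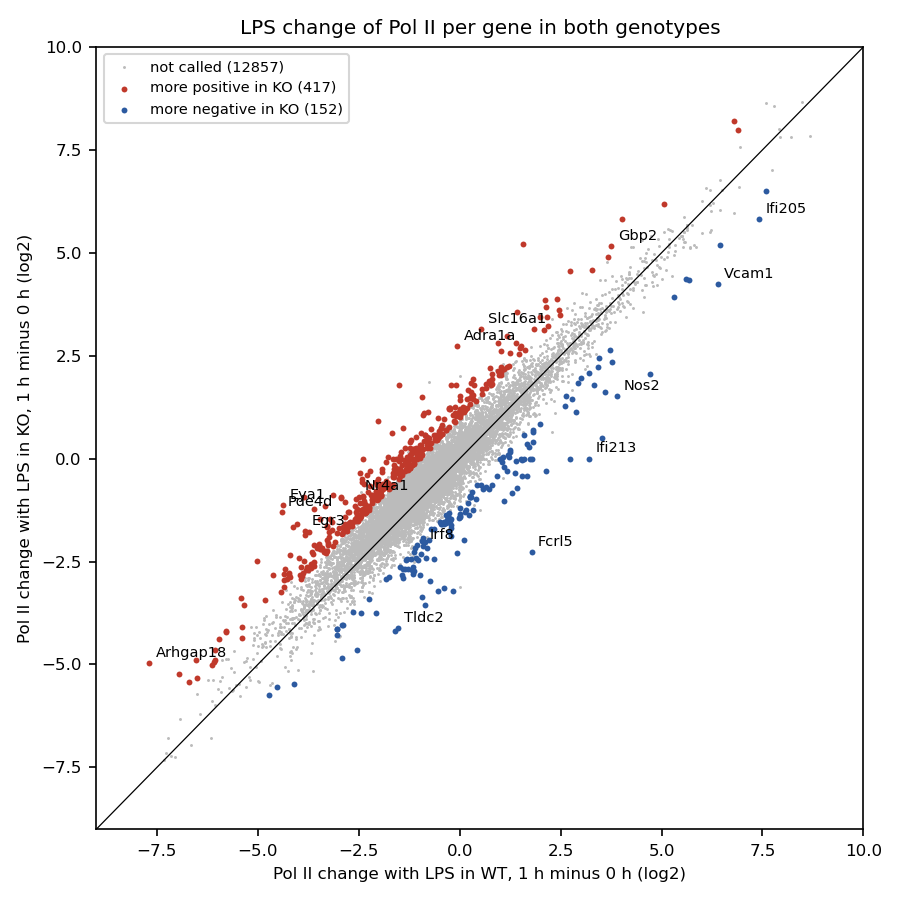
Each point is 1 of the 13426 genes, with the Pol II change with LPS in WT on the x axis and in KO on the y axis, both in log2 units of normalized tags plus 10. Red and blue points are the 417 and 152 genes called for the interaction, the line marks equal change, and uncalled genes are grey. The median interaction of all genes, 0.17, puts the cloud slightly above the line.

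The called genes were split by the LPS change in each genotype, by the same adjusted p and fold. Genes with a called loss in WT and no called rise in KO, here loss weaker in KO, were the most common class, with 259 (119 of them also called after centring, and 4 of them higher in KO after LPS by the adjusted p alone), and their median LPS change was -1.10 in KO and -2.38 in WT. Induction was stronger in KO at 79 genes (33 after centring) and weaker in KO at 46 (all 46 after centring). Loss was stronger in KO at 72 genes (all 72 after centring). LPS changes called by fold had opposite directions at 3 genes (at 49 called genes by the adjusted p alone), and 49 genes, 29 positive and 20 negative, were at or under 10 normalized tags in every library of 1 genotype. Another 61 genes, 49 positive and 12 negative, passed for the interaction without a called LPS change that put them in a class.

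A gene can be called because the genotypes differ before LPS, after it, or both. By the same rule, KO and WT differed at 1.15% of all genes at 0 h and at 4.27% at 1 h. Of the 417 positive calls, they differed at 1 h alone in 222, at 0 h alone in 41, at both times in 7 and at neither in 147. Of the 152 negative calls these numbers were 87, 31, 5 and 29. These shares and counts are on the deposited scale, where the median difference between KO and WT was 0.039 at 0 h and 0.20 at 1 h. They were not repeated after centring. The time at which the genotypes parted is given below for most of the named genes, because an induction can be weaker in KO with the same level of Pol II at 1 h. The share of positive calls rose with gene length, from 1.49% of genes of 0.10 to 9.89 kb to 4.86% of genes of over 53.5 kb, while the share of negative calls was 1.13% and 1.01%.

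The genes named next had the largest interactions of each class. They were also called after centring, had a group mean of at least 50 tags, overlapped no other protein-coding gene, and had LPS changes (each library at 1 h minus the mean at 0 h of its genotype) that did not overlap between genotypes. LPS changes without overlap were found at 567 of the 569 called genes and at 57.3% of all genes, so this condition removed few calls.

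Among the named genes with a stronger induction in KO, Slc16a1 and Adra1a had the largest interactions. Slc16a1 (chr3:104638668-104658462, mm10) encodes the lactate transporter MCT1. It had 48.2, 44.8 and 35.3 normalized tags in KO at 0 h and 523, 436 and 409 at 1 h, against 41.1, 51.0 and 59.4 and then 91.8, 74.1 and 67.0 in WT. The genotypes overlapped before LPS and were far apart after it, with an LPS change of 3.14 in KO and 0.54 in WT and an interaction of 2.61 ± 0.22 (adjusted p = 5.5e-07). Regions covered 88.1% of the Slc16a1 window in KO at 1 h and 15.8% in WT, whereas the 1 kb around the start had means of 34.1 tags in KO and 30.7 in WT at 1 h (interaction 0.38, adjusted p = 0.43). At 0 h all of its KO tags came from regions lying mostly outside the window. Adra1a (chr14:66635251-66771168), an alpha-1 adrenergic receptor, was already higher in KO before LPS, with 140, 159 and 114 tags against 29.4, 34.6 and 42.0 in WT. At 1 h it had 933, 1092 and 895 tags in KO and 57.2, 13.8 and 40.8 in WT, so that only KO showed a change past the threshold (2.74, against -0.06 in WT), with an interaction of 2.80 ± 0.36. At 18 h the means were 2012 tags in KO and 374.2 in WT.

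Ankrd28, a regulatory subunit of protein phosphatase 6, went up in KO, from 299, 260 and 345 tags to 734, 675 and 611, and down in WT, from 380, 517 and 469 to 289, 231 and 261 (interaction 1.92 ± 0.17). Ccl28, a mucosal chemokine, and 1700011L22Rik showed the same arrangement at lower levels. The fall in WT rests on the scale, as after centring the WT change was 0.02 for Ankrd28, -0.09 for Ccl28 and -0.10 for 1700011L22Rik. Ccl28 went from a mean of 39.3 to 94.7 tags in KO and from 33.7 to 14 in WT, and 1700011L22Rik from 155.7 to 335.5 and from 190.2 to 97.2. Serpinb2, the plasminogen activator inhibitor PAI-2 of activated macrophages, was listed at 0 before LPS in all 6 libraries and had 63.6, 70 and 48.3 tags in KO at 1 h against 0, 9.43 and 27.6 in WT. Olfr99, an olfactory receptor gene, had 310, 263 and 290 tags in KO at 1 h against 36.9, 35.5 and 85.2 in WT, but all of the KO tags at 1 h came from regions lying mostly outside its window, 4.56 kb from H2-M3. The interaction of H2-M3 itself was 0.26 (adjusted p = 0.26), and that of Olfr99 was -0.76 with input regions left out.

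Among the named genes with a weaker induction in KO, Nos2 had the largest interaction. Nos2 (chr11:78920787-78960254), the inducible nitric oxide synthase, had 9.97, 35.3 and 28.6 tags in KO and 22.1, 28.5 and 32.0 in WT before LPS. After 1 h it had 93.6, 92.2 and 67.6 in KO, against 548, 498 and 594 in WT. The ranges were then far apart, and the LPS change was 1.52 in KO and 3.90 in WT (interaction -2.38 ± 0.30, adjusted p = 4.6e-05). The 1 kb around its start had means of 15.2 tags in KO and 19.0 in WT at 1 h (interaction -0.20, adjusted p = 0.46), and the rest of its window 69.2 and 527.5. Lgals9, 2.72 kb away, had an interaction of -0.82 (adjusted p = 1.2e-04). At 18 h KO had the higher mean, 17497 tags against 11565 in WT. Ifi205 (chr1:174011998-174031810), an interferon-inducible member of the p200 family, reached 682, 670 and 711 tags in KO and 2477, 2754 and 2954 in WT from near 0 in both (interaction -1.61 ± 0.34). With a pseudocount of 1 its interaction was -0.79 (adjusted p = 0.68). Ifi213, of the same family, had no Pol II region in any of the 6 KO libraries at 0 and 1 h. At 18 h its means were 581.6 tags in KO and 2306 in WT. In WT it had 9.27, 5.82 and 12.7 tags at 0 h and 181, 173 and 144 at 1 h. Cxcl9, a chemokine for T cells, had 44.0, 70.9 and 56.7 tags in WT at 1 h and was listed at 0 in the other 9 libraries. For genes with a group at 0 the interaction, -3.20 for Ifi213 and -2.73 for Cxcl9, is set by the 10 tags added before the logarithm and is no bound.

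Tap2, which carries peptides to class I molecules, had 193, 164 and 211 tags in KO at 1 h and 730, 647 and 595 in WT, against 155, 153 and 150 and 183, 265 and 148 before LPS. Psmb8, an immunoproteasome subunit 2.07 kb away, had an interaction of -0.84 (adjusted p = 0.0037), and 98.5% of the WT tags of Tap2 at 1 h came from regions lying mostly outside its window, and regions can span both genes. Slco4a1, an organic anion transporter, had 16.7, 28.0 and 14.4 tags in KO at 1 h and 138, 100 and 103 in WT. At 0 h it had 0, 0 and 7.12 tags in KO and 9.27, 13.5 and 7.67 in WT. KO was thus the lower at both times without overlap, though the difference at 0 h did not pass (-0.74, limma adjusted p = 0.069). Its interaction was -1.33 with 10 tags added and -0.07 with 1 (adjusted p = 0.98).

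At 3 of the 7 genes with a weaker induction in KO, the genotypes differed before LPS. Vcam1, an adhesion molecule of the vessel wall that macrophages can also express, had 77.6, 90.2 and 50.8 tags in KO and 4.98, 15.7 and 6.52 in WT at 0 h. At 1 h it had 1682, 1435 and 1476 in KO and 1567, 1476 and 1594 in WT, which overlap. The difference between genotypes was thus 2.13 at 0 h and -0.02 at 1 h, and the interaction -2.15 ± 0.26 (adjusted p = 3.1e-05). The weakest interaction of Vcam1 over 30 alternatives was -0.02, with the call lost under 3. Slc25a37, the mitochondrial iron importer mitoferrin 1, showed the same order, with 0 h means of 66.3 tags in KO against 20.9 in WT and 1 h means of 1155 against 1192. Its interaction ran from -1.89 to -0.05 over 28 alternatives, with the call lost under 1. H1foo, an oocyte linker histone gene, had means of 95.4 and 7.13 tags at 0 h, but over 90% of its tags came from regions lying mostly outside its window, and Plxnd1, 4.58 kb away, had an interaction of -1.02.

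**Figure D2:**
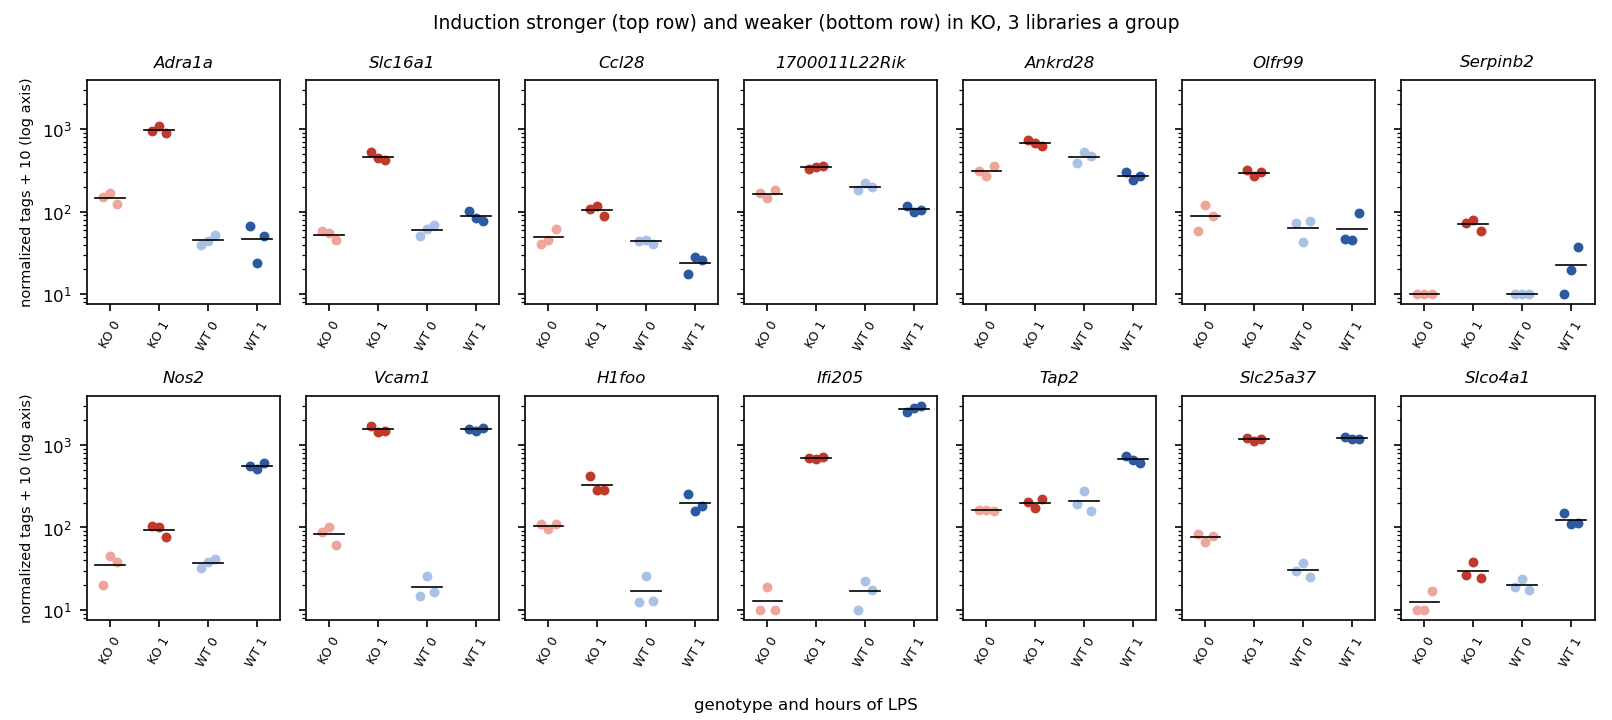
Normalized tags plus 10 on a log axis for the 7 genes with a stronger and the 7 with a weaker induction in KO, with 1 point per library and a line at the mean of 3. Nos2, Ifi205 and Tap2 overlap at 0 h and part at 1 h, and Slco4a1 is lower in KO at both times. Vcam1 and Slc25a37 are apart at 0 h and overlap at 1 h.

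Loss of Pol II was weaker in KO at Pde4d and Arhgap18. Arhgap18 (chr10:26753421-26918648), a GTPase-activating protein, had 1822, 1782 and 2139 tags in KO and 1787, 2177 and 2211 in WT before LPS. It kept 40.4, 54.7 and 60.3 tags in KO at 1 h and was listed at 0 in all 3 WT libraries, so both genotypes lost most of it. Input libraries gave 48.1 to 625.1 tags over the Arhgap18 window. Its interaction was 2.72 and ran from 0.01 to 5.81 over 28 alternatives, with the call lost under 2. Pde4d, a cAMP phosphodiesterase whose gene spans 1504 kb, had means of 269.5 and 270.0 tags at 0 h, then at 1 h 102, 133 and 81.9 in KO against 0, 12.9 and 0 in WT. The input libraries, which had no antibody, gave 134.7 to 1926 tags over the Pde4d window, the highest of them above every Pol II value, and its interaction was -0.30 with a stricter density of regions. Carmil1, an actin capping regulator, had 89.7, 93.9 and 91.8 tags in KO at 1 h and 16.5, 0 and 13.1 in WT, from means of 44.3 and 66.1 at 0 h. It thus rose in KO (0.92, adjusted p = 0.018) and is in this class by its loss in WT.

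Eya1 and Fcrl1, also in the class of weaker loss, had less Pol II in KO before LPS. Eya1, a developmental phosphatase and transcription cofactor, had 11.2, 20.6 and 6.13 tags in KO at 0 h and 301, 380 and 369 in WT, and all 6 libraries at 1 h were at 20.7 or below. Fcrl1, an Fc receptor-like gene next to Cd5l, had 9.36, 7.67 and 10.3 in KO at 0 h and 148, 180 and 174 in WT, and 8.62 or less in every library at 1 h. Regions lying mostly outside its window gave 46.8% of the WT tags at 0 h. Cd5l, 5.31 kb away, went from a mean of 9.71 tags to 0 in KO and from 808.9 to 212.2 in WT. The interaction of Cd5l was 0.92 (adjusted p = 0.0027).

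Loss was stronger in KO at Tldc2 and Gm8369, where the genotypes overlapped before LPS, and at Ifitm6. Tldc2 (chr2:157087055-157096482) had 244, 264 and 259 tags in KO and 205, 262 and 243 in WT at 0 h, and 5.89, 7.12 and 3.00 against 93.2, 78.2 and 57.8 at 1 h (interaction -2.60 ± 0.18). It lies 1.05 kb from Samhd1, the dNTP hydrolase that restricts viruses, and all its tags at 0 h came from regions lying mostly outside its window. Samhd1 had means of 1646 and 991 tags in KO and 1442 and 2154 in WT, an interaction of -1.31 (adjusted p = 8.8e-08). Ifitm6, an interferon-induced transmembrane gene of myeloid cells, had 210, 199 and 182 tags in KO and 267, 269 and 276 in WT at 0 h, then 16, 10.8 and 10.8 in KO against 452, 154 and 84.5 in WT, a wide spread between libraries. Gm8369, in the Ms4a cluster, kept 15.6, 24.3 and 0 in KO and 107, 86.4 and 110 in WT. Gfra2, a receptor of neurturin, and Ide, the insulin-degrading enzyme, are again genes that differed before LPS. Gfra2 had 297, 285 and 289 tags in KO and 37.8, 62.3 and 48.2 in WT at 0 h, Ide had 122, 186 and 228 and 18.7, 20.8 and 22.2, and at 1 h both genes were at 7.36 or below in all 6 libraries.

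Fcrl5 and C9 moved in opposite directions over the whole window. Fcrl5, a receptor-like gene in the same cluster as Fcrl1, fell in KO from 137, 126 and 125 tags to 8.83, 30.9 and 21.3 and rose in WT from 133, 158 and 140 to 616, 248 and 903 (interaction -4.05 ± 0.55, adjusted p = 1.0e-04). The next gene with regions, Etv3, had an interaction of -0.01. Regions lying mostly outside the window gave 71.1% of the WT tags of Fcrl5 at 1 h. At 18 h its means were 593.2 in KO and 2647 in WT. C9, a complement gene 4.62 kb from the highly occupied Dab2, was listed at 0 in KO before LPS and reached only 19.0, 27.1 and 28.0 tags, and WT went from 9.71, 46.6 and 101 to 11.7, 0 and 14.9. The fall of C9 in WT lay in the 1 kb around the start, with means of 45.0 and then 0 tags. The rest of its window had means of 7.26 and 8.87 in WT. Regions lying mostly outside the window gave 86.1% of its WT tags at 0 h.

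**Figure D3:**
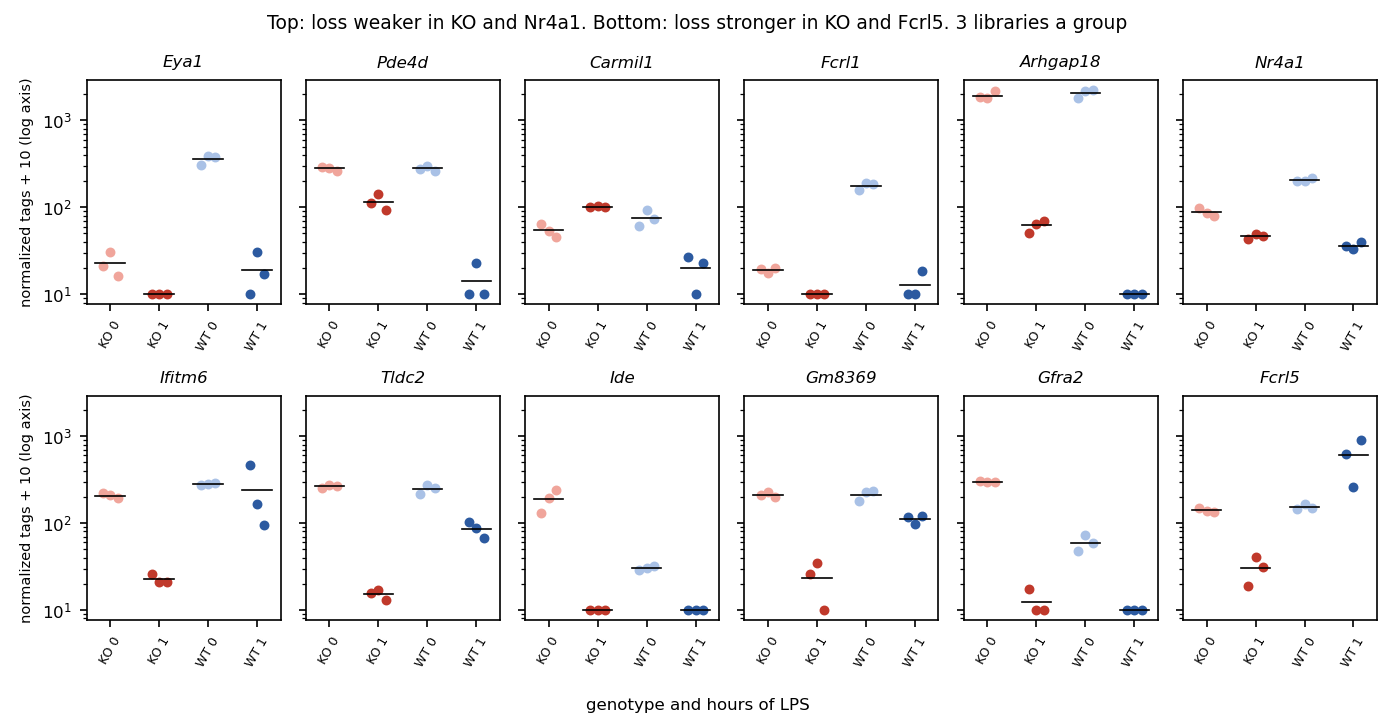
Normalized tags plus 10 on a log axis for the 5 genes in the class of weaker loss in KO (of which Carmil1 rose in KO) and Nr4a1 (top row), and for the 5 with a stronger loss and Fcrl5 (bottom row), with 1 point per library and a line at the mean of 3. Arhgap18 and Pde4d overlap at 0 h and part at 1 h, Eya1, Fcrl1, Gfra2 and Ide differ at 0 h, and Fcrl5 moves in opposite directions.

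These 28 genes, without Nr4a1, kept their direction and passed the adjusted p threshold with any 1 of the 12 libraries left out. They also did after quantile normalization. They were picked from these same libraries by size, a call after centring and LPS changes without overlap, so this outcome was close to fixed. Of all calls, 314 of the 417 positive and 128 of the 152 negative ones were kept without WT 1 h replicate 2. After quantile normalization 193 and 133 were kept. Without replicate 1, 2 or 3 of every group, 26, 25 and 27 of the 28 passed, and with a pseudocount of 1, 22 did, all but Serpinb2, Ifi205, Slco4a1, Gfra2, Eya1 and Fcrl1. With input regions left out 5 passed with the same sign, 11 lost the call and 2 changed sign, and with a stricter density of regions these numbers were 9, 14 and 1. For 9 of them over 50% of the tags of some group came from regions lying mostly outside the window (C9, Tap2, Olfr99, Gm8369, Tldc2, Fcrl5, Slc16a1, H1foo and Ifitm6). For 9 the highest input library had more tags than the highest Pol II group mean (Serpinb2, Ifi213, Carmil1, Pde4d, Ccl28, Ankrd28, C9, Gm8369 and Ide). Windows at the start, the first base of the annotated gene, need not hold the promoter in use. At Slc25a37 they were listed at 0 for both Pol II and H3K27ac. The 1 kb window at the start was testable for 18 of the 28. Of these, 5 passed with the same sign, 11 lost the call and 2 changed sign, of which H1foo passed with the other sign (0.68, limma adjusted p = 0.012). H3K27ac within 2500 bp of the start could be tested for 20 of the 28, and limma found an interaction at none of them at an adjusted p of 0.05, against 65 (0.535%) of all 12154 gene starts, 31 of which (0.255%) also passed the fold. At an unadjusted p under 0.05 there were 6 of the 20 and 2491 of the 12154. The count of 31 depends on single libraries. It was 1063 without KO 1 h replicate 1, 16 without KO 1 h replicate 2, 20 without KO 0 h replicate 1, 19 without KO 0 h replicate 3 and 20 without WT 0 h replicate 3. The absence of calls among the 20 genes rests on the same libraries. At Ifi205, KO replicates 1, 2 and 3 had 341.8, 87.2 and 73.7 H3K27ac tags at 1 h, with an interaction of -2.23 (limma adjusted p = 0.075).

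The early response genes were then read as lists, where a member passes at an adjusted p of 0.05 alone. Among all genes tested 18.4% passed by this rule, 14.2% as more positive and 4.22% as more negative in KO, and after centring 6.53% and 13.4%. Of the list members that passed, 60 in all, 41 also passed after centring, 48 after quantile normalization and 24 without replicate 2, and none changed sign under these settings. With the 12 libraries at 0 and 1 h fitted alone, 45 passed and 15 lost the call. In the start window 17 passed with the same sign, 34 lost the call and 6 changed sign, with a stricter density 27, 22 and 9, and with input regions left out none passed with the same sign, 10 lost the call and 4 changed sign.

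In the interferon response, 7 of 22 tested members were more negative in KO and 4 more positive, and the list median was -0.24. After centring these were 10 and 2. Ifnb1, the interferon beta gene, had 249.2, 253 and 313 tags in KO and 161, 259 and 256 in WT at 1 h (interaction 0.28, adjusted p = 0.55). Mx1, an antiviral GTPase, had 486, 507 and 457 tags in KO at 0 h and 2476, 2286 and 2277 at 1 h, against 482, 529 and 538 and then 4671, 4578 and 4858 in WT. The genotypes overlapped at 0 h and were apart at 1 h, with an interaction of -0.91 ± 0.08 (adjusted p = 1.4e-06). Irf8, a transcription factor of the myeloid lineage, fell in both genotypes, to 534, 509 and 485 tags in KO and to 1195, 1167 and 1282 in WT from means of 2241 and 2292 at 0 h (interaction -1.21 ± 0.09, adjusted p = 1.3e-07). Ifit2 (-0.60) and Irf7 (-0.78) were also lower in KO at 1 h, and their difference at 0 h did not pass (adjusted p = 0.39 and 1). Stat2 (-0.37, a call lost under 23 of 29 alternatives) was lower in KO at 1 h, and Oasl1 (-0.72) was higher in KO before LPS.

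Of the 4 members that went the other way, Gbp2, Gbp5 and Ifit1 were lower in KO before LPS. Gbp2, an interferon-inducible guanylate-binding protein, had 40.6, 45.3 and 46.2 tags in KO and 175, 200 and 172 in WT at 0 h, and 1989, 1866 and 1946 in KO against 2635, 2546 and 2587 in WT at 1 h. KO was lower at both times without overlap, with a difference of -1.83 at 0 h and -0.42 at 1 h on the log2 scale, an interaction of 1.41 ± 0.09 (adjusted p = 3.5e-08). Gbp5 had 6.02, 14.5 and 14.6 tags in KO and 47.6, 64.6 and 60 in WT at 0 h, with 6709, 6099 and 6043 and 7443, 7352 and 7669 at 1 h (interaction 1.40 ± 0.21). All its WT tags at 1 h came from regions lying mostly outside its window. The interaction of Ifit1 was 0.46. Ifih1, the RNA sensor MDA5, was instead the higher in KO at 1 h (interaction 0.45, a call lost under 14 of 29 alternatives), and neither Ifit1 nor Ifih1 passed after centring.

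Interferon-driven promoters carry the sites of IRF and STAT factors, and the promoters of genes on either side were read for fixed letters. RefSeq (GRCm38.p6) gave a promoter, from 250 bases before to 50 after the start, for 10432 of the 13426 genes. The IRF letters, GAAA followed after any 2 bases by GAAA and read on both strands, were in 3.95% of these promoters, in 13 of 121 (10.7%) promoters of genes more negative in KO and in 15 of 303 (4.95%) of genes more positive in KO. For AP-1 (TGAGTCA or TGACTCA) the shares were 4.66%, 6.61% and 6.27%, for the cAMP element (TGACGTCA) 3.46%, 3.31% and 3.63%, and for the element bound by NR4A monomers (AAAGGTCA) 1.30%, 0.826% and 1.65%, again for all genes, the more negative and the more positive. These are descriptions, and a match is not a bound site. The 220 bases before the start are printed for 3 genes more negative in KO and 3 more positive, to show that matches occur on both sides, with matches in capitals. Windows are chr1:174031756-174031975 (Ifi205, minus strand), chr1:173599273-173599492 (Ifi213, minus), chr19:34475149-34475368 (Ch25h, minus), chr3:142620443-142620662 (Gbp2, plus), chr3:142496714-142496933 (Gbp5, plus) and chr5:92348890-92349109 (Cxcl10, minus).
Ifi205: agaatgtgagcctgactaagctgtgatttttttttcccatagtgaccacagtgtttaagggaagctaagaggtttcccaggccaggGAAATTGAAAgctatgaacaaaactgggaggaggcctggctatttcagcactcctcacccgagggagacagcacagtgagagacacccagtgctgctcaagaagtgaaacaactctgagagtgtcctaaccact
Ifi213: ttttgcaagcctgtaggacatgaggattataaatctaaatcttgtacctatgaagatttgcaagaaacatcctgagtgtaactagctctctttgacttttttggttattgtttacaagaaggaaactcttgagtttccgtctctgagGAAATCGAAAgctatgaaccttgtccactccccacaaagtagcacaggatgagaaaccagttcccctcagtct
Ch25h: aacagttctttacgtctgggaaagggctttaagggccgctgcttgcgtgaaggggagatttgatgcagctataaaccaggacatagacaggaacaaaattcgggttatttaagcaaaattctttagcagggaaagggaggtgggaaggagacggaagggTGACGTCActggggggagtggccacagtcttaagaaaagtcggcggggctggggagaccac
Gbp2: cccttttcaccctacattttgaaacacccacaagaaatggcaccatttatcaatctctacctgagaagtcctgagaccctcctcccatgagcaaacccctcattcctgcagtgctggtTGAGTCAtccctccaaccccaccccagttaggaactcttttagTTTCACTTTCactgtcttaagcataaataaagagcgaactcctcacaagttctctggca
Gbp5: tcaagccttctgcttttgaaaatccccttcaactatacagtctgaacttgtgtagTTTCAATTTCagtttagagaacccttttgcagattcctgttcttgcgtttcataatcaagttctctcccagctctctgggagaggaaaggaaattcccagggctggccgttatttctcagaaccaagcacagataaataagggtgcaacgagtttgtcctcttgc
Cxcl10: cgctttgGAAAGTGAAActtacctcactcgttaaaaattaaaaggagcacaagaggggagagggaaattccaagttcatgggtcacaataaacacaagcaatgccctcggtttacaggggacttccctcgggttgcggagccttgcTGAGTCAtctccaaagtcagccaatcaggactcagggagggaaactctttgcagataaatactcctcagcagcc
In Ifi205, Ifi213 and Gbp5 the capitals are the IRF letters, in Ch25h the cAMP element, and in Gbp2 and Cxcl10 both the IRF letters and AP-1.

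Of 25 cytokines and chemokines, 4 were more positive and 3 more negative in KO, with a median of -0.04, and after centring 1 and 8, with a median of -0.27. Il12b, the p40 subunit of interleukins 12 and 23, rose from 0 to 2599, 2106 and 2204 tags in KO and from under 1 to 4096, 4226 and 4314 in WT (interaction -0.84 ± 0.14, adjusted p = 6.2e-04). With a pseudocount of 1 it was -0.59 (adjusted p = 0.12). The monocyte chemoattractant Ccl2 (-0.62) and Ccl9 (-0.59) were also lower in KO at 1 h, with interaction calls lost under 21 and 10 of 28 alternatives. The neutrophil chemoattractants Cxcl1 (1.09) and Cxcl2 (0.45), the T cell chemoattractant Cxcl10 (1.15) and the anti-inflammatory Il10 (0.68) were more positive, and all 4 had less Pol II in KO at 0 h by the adjusted p alone, as had 2.68% of all genes. Cxcl1 was listed at 0 in the KO libraries before LPS and had 24.0, 6.67 and 18.4 tags in WT, and at 1 h it had 2745, 2448 and 2389 in KO and 2791, 3036 and 3172 in WT. All tags of Cxcl1 and Cxcl10 at 1 h came from regions lying mostly outside their windows. Of these 4, Cxcl1 alone passed after centring, and the other 3 alone after quantile normalization (Cxcl1 0.53, adjusted p = 0.17). The interaction of Cxcl1, with its KO libraries at 0, was 3.71 with a pseudocount of 1 and 0.16 with 50 (adjusted p = 0.42). The calls of Cxcl2 and Cxcl10 were lost under 23 of 29 and 19 of 28 alternatives.

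Feedback regulators, the phosphatases and inhibitors that switch the response off, had a list median of 0.34, the highest of the 12 lists plotted, with 8 of 21 members more positive and 1 more negative. After centring these were 4 and 4. Dusp6, a phosphatase of ERK, fell to 204, 142 and 156 tags in KO and to 93.7, 66.0 and 83.3 in WT from means of 1090 and 1151 (interaction 1.03 ± 0.21, adjusted p = 0.0028). Regions lying mostly outside its window gave all of its tags at 0 h, and at 1 h 55.0% of the KO tags against 95.0% of the WT tags. Spry2, an inhibitor of receptor tyrosine kinase signalling, fell to 357, 352 and 375 in KO and to 196, 182 and 193 in WT (0.75 ± 0.13). Dusp5 and Trib1 had more Pol II in KO at 1 h, with interactions of 0.53 and 0.58, and Dusp2 had less (-0.46).

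Among the other immediate early genes, Egr2 fell in KO from 1243, 1251 and 1057 tags to 643, 603 and 631 and had 814, 873 and 893 and then 988, 1095 and 999 in WT (interaction -1.16 ± 0.13, adjusted p = 1.8e-05). Egr3 fell in both, to 69.2, 113 and 71.8 in KO and to 14.8, 9.62 and 0 in WT (2.07 ± 0.36, adjusted p = 8.2e-04). All tags of both genes at 0 h, and of Egr2 at 1 h, came from regions lying mostly outside their windows, and their nearest neighbours moved with them, Ado at -1.21 beside Egr2 and Pebp4 at 2.24 beside Egr3. Over the list of 21, 3 members were more positive and 1 more negative, shares near those of all genes, with a median of 0.21, and after centring 1 and 5. Of 20 AP-1 factors, Jun fell less in KO, to 346, 368 and 367 tags against 207, 220 and 224 in WT (0.88 ± 0.10, adjusted p = 1.1e-05), Maff was more positive (0.33, adjusted p = 0.048, a call lost under 24 of 29 alternatives) and Atf3 more negative (-0.47), and the median was 0.02. After centring 1 AP-1 factor was more positive and 4 more negative, with a median of -0.21.

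NF-kB subunits and inhibitors had 1 of 15 members past the threshold, Tnfaip3, the ubiquitin-editing inhibitor A20, which rose to 19239, 17063 and 17142 tags in KO and 20451, 20302 and 20173 in WT (-0.45 ± 0.09). After centring 6 were more negative and none more positive. Their median was -0.01 (-0.24 after centring), with median LPS changes of 2.35 in KO and 2.5 in WT. Of 21 tested genes of LPS reception and signalling, 4 were more positive, among them the receptors Tlr4 (0.37, 0.14 and not called after centring) and Tlr2 (0.64), and 2 more negative, Map3k8 (-0.38) and Irak2 (-0.28). After centring 1 was more positive and 5 more negative. Glycolysis had 1 of 18 members past the threshold, Pfkfb3 (-0.34), and pausing and elongation factors 1 of 21, Ccnt2 (0.45, a call lost under 18 of 29 alternatives, with -1.46 in the start window). After centring 3 glycolysis genes and 4 pausing and elongation factors were more negative and none more positive. Of 12 reference genes, Actb (-0.86) and Sdha (0.83) passed, and after centring 1 was more positive and 3 more negative.

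Of 20 genes of liver X receptors and cholesterol, 6 were more positive in KO and 2 more negative, and after centring 3 and 3. The 2 exporters parted: Abca1 rose to 18694, 18329 and 18445 tags in KO and 12067, 12018 and 12034 in WT (0.41 ± 0.08), whereas Abcg1 fell to 1103, 1153 and 1072 in KO and had 1607, 1582 and 1586 in WT at 1 h (-0.82 ± 0.09, adjusted p = 1.3e-05). With input regions left out the interaction of Abcg1 was 1.86. The other members more positive in KO included 4 of sterol synthesis and its control, Cyp51 at 1.51, Sqle at 0.74, Insig1 at 0.62 and Srebf2 at 0.60, of which Cyp51 and Insig1 passed after centring. The calls of Sqle and Srebf2 were lost under 21 and 11 of 30 alternatives. Ch25h, which makes the antiviral oxysterol 25-hydroxycholesterol, was at 4.94, 13.8 and 2.08 tags in KO at 1 h and at 32.6, 27 and 17.3 in WT (-1.11 ± 0.28), with all KO tags from regions lying mostly outside its window.

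Among the 13 macrophage markers, 4 were more negative in KO and 2 more positive, with the same numbers after centring. Adgre1 (F4/80) rose to 13349, 13160 and 13008 tags in KO and to 22676, 21921 and 22654 in WT from levels that overlapped at 0 h (-0.81 ± 0.09, adjusted p = 1.4e-05). The efferocytosis receptor Mertk fell to 903, 917 and 890 in KO and 1482, 1428 and 1434 in WT, from 2664, 2692 and 2921 and 1790, 2156 and 2018, so KO was the higher before LPS and the lower after it (-1.15 ± 0.08, adjusted p = 1.2e-07). The interaction of Mertk was 0.18 in the start window and 1.26 with input regions left out. The IgG receptor Fcgr1 (-1.09) and the integrin Itgam (-0.68) fell further in KO, Csf1r fell less (0.42), and Cx3cr1 rose more (0.58).

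**Figure D4:**
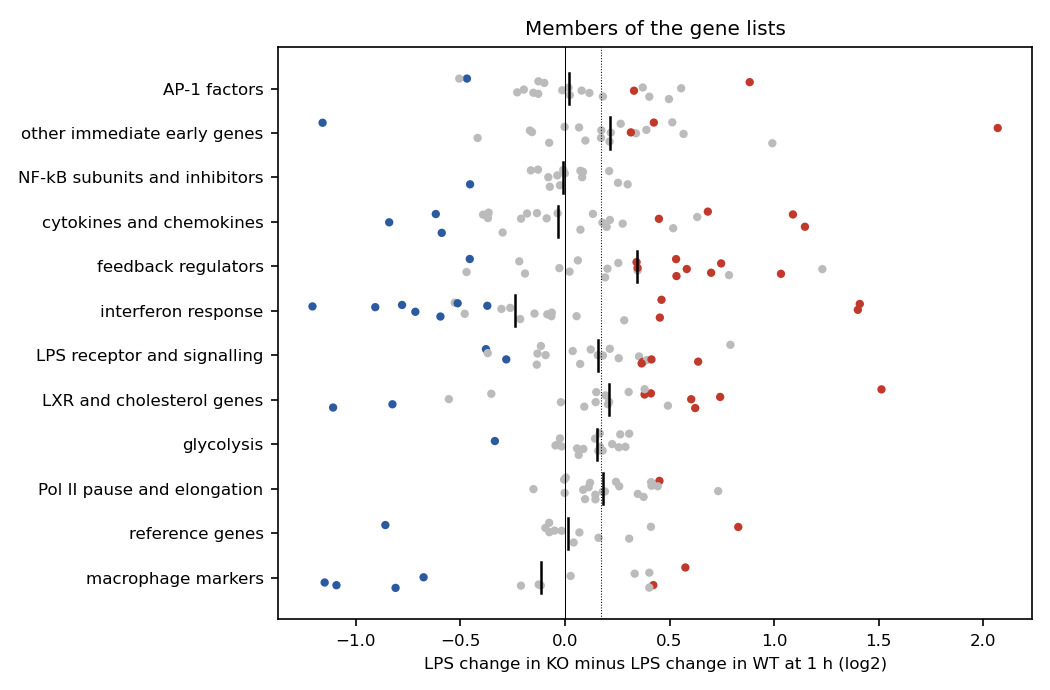
Interaction of every tested member of 12 gene lists on a log2 axis, with 1 point per gene, red and blue where a member passed an adjusted p of 0.05 as more positive or more negative in KO, grey otherwise, and a bar at the list median. The solid line is 0 and the dotted line the median of all 13426 genes, 0.17. The interferon list lies furthest left with a median of -0.24, and the feedback regulators furthest right with 0.34.

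Over whole libraries, the number of Pol II regions fell with LPS from 55912 ± 1618 to 38934 ± 716 in KO and from 57126 ± 793 to 38853 ± 1007 in WT (mean ± SD, n = 3). The covered length fell from 184.2 ± 7.0 to 163.5 ± 4.7 Mb in KO and from 188.1 ± 8.1 to 151.4 ± 6.4 Mb in WT. The difference of these differences was 15.9 Mb (exact two-sided permutation test over 400 relabelings, p = 0.075, adjusted p = 0.22 over 3 measures), and for the number of regions it was 1295 (exact p = 0.34, adjusted p = 0.52). For the share of tags in regions the difference was -0.21 percentage points (exact p = 0.99, adjusted p = 0.99).

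**Figure D5:**
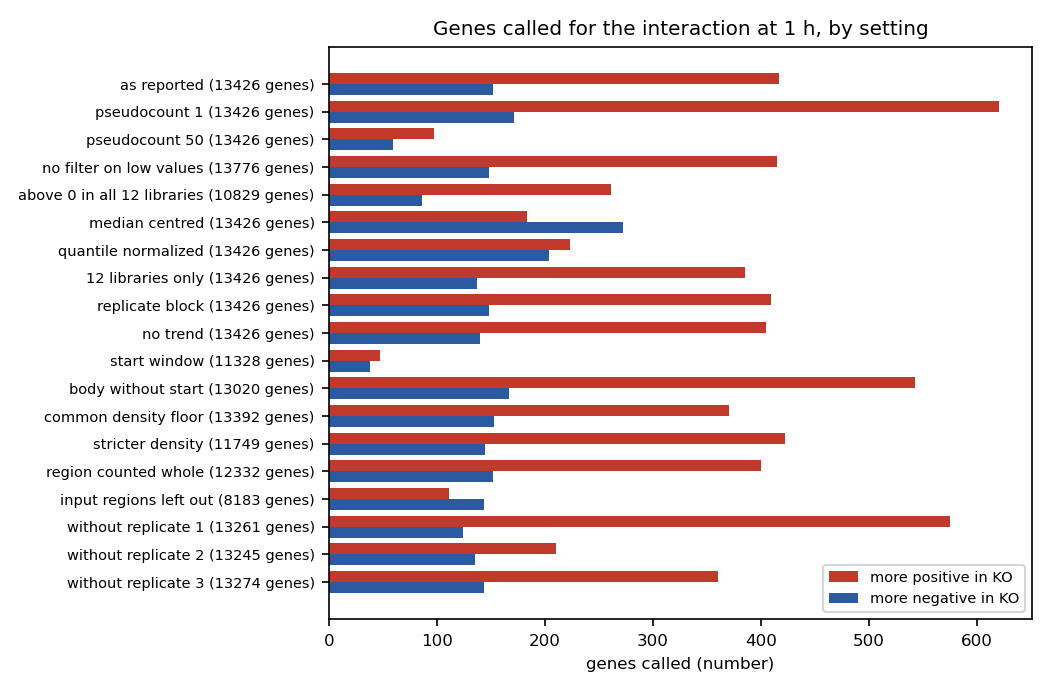
Number of genes called for the interaction, more positive (red) and more negative (blue) in KO, as reported and under the other settings named on the axis, with the number of genes tested in parentheses. Positive calls lead as reported, 417 to 152, and negative calls lead after median centring, 183 to 272, and with input regions left out, 111 to 143.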

How the data were processed

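Per the file headers and the labels, the deposited values are a signal, tags in each called region normalized to 10 M tags of a library. Reads were trimmed (Skewer), mapped to mm10 (HISAT2 2.1.0) and stripped of duplicates by the authors, who called regions with HOMER in each library alone, without an input control (500 bp windows at a Poisson p of 0.001, stitched under 1000 bp). The catalogue number of the Pol II antibody differs between the labels and the paper. Here, regions were shared out by overlap over GENCODE vM21 protein-coding genes with 500 bp on either side, and log2(value + 10) was fitted with limma 3.58.1 (R 4.3.3, trended prior, Benjamini-Hochberg adjustment) on 6 group means of the 18 Pol II libraries. Fold changes are on this scale, which understates changes of low genes. A gene was tested if 2 or more of the 3 libraries in any of the 4 groups had a value above 0. The 28 genes were those with the largest interaction per class (7, 7, 5 and 5 for induction and loss, up to 2 otherwise) under the conditions given above. Whole reads could not be recovered from the rounded values, so no count test was run. A few list members are not reported here by name. The members and gene lists were chosen with earlier results of these data known. The script was tested on simulated data.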

Additional observations from a re-analysis of the deposited data

Results flagged for a closer look

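For each of these genes the LPS change of Pol II at 1 h differed between KO and WT by the limma test of the interaction itself (adjusted p under 0.05 and a log2 difference above 1), which is the comparison of the report. No group had the 4 libraries that a search for single outlying samples needs. More negative in KO were Fcrl5 (-4.05), Ifi213 (-3.20), Cxcl9 (-2.73), Ifitm6 (-2.66), Tldc2 (-2.60), Ide (-2.59), Gm8369 (-2.43), Nos2 (-2.38), Vcam1 (-2.15), Gfra2 (-2.09), H1foo (-1.98), Ifi205 (-1.61), Tap2 (-1.42), Slc25a37 (-1.36) and Slco4a1 (-1.33). Of the list members, Irf8 (-1.21), Egr2 (-1.16), Mertk (-1.15), Ch25h (-1.11) and Fcgr1 (-1.09) were too. More positive in KO were C9 (3.29), Eya1 (3.24), Pde4d (3.11), Carmil1 (2.95), Fcrl1 (2.91), Adra1a (2.80), Arhgap18 (2.72), Slc16a1 (2.61), Ccl28 (1.99), 1700011L22Rik (1.96), Ankrd28 (1.92), Olfr99 (1.87), Serpinb2 (1.85) and Nr4a1 (1.58). Of the list members, Egr3 (2.07), Cyp51 (1.51), Gbp2 (1.41), Gbp5 (1.40), Ms4a1 (1.2), Cxcl10 (1.15), Cxcl1 (1.09) and Dusp6 (1.03) were too. Ms4a1, the B cell antigen CD20, had 45.3, 18.9 and 28.9 tags in KO and 46.8, 54.3 and 43.1 in WT at 0 h, and 11.7 or less in all 6 libraries at 1 h. Of 5 B cell markers 3 had regions, and their sum was 123.2 to 161.2 tags in KO and 100.4 to 158.6 in WT at 0 h, and 59.5 to 77.8 and 41.4 to 53.0 at 1 h.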

How the results depend on the processing

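Of 30 alternatives, these moved the 569 calls by over 1.5 times: a pseudocount of 50 gave 156, values above 0 in all 12 libraries 347, the start window 85 and input regions left out 254, and leaving out replicates gave 345 to 699, the lowest without replicate 2. LPS calls in KO were 3800, 1756 and 2993 with a pseudocount of 50, the start window and input regions left out (6037 to 6236 without a replicate), and in WT 4292, 2190 and 3056, and 4659 after quantile normalization (6882 to 7380). Nr4a1 was 1.78 with a pseudocount of 1 (adjusted p = 0.11), 0.67 in the start window and -0.39 with input regions left out, and 1.49 to 1.71 without a replicate. Signs changed in the start window for H1foo (0.68), Slco4a1 (0.73), Gbp2 (-0.22), Srebf2 (-0.10), Pfkfb3 (0.24), Ccnt2 (-1.46), Itgam (0.068) and Mertk (0.18). They changed with a stricter density for Pde4d (-0.30), Maff (-0.74), Il10 (-0.21), Cxcl1 (-0.25), Cxcl10 (-0.52), Dusp16 (-0.61), Ifit2 (1.01), Gbp5 (-0.25) and Sqle (-1.47). With regions counted whole they changed for H1foo (0.50), Tap2 (2.36), Ifitm6 (0.19), Il10 (-0.89), Cxcl2 (-2.90), Dusp2 (0.10) and Spry2 (-1.18). With input regions left out they changed for Olfr99 (-0.76), Tldc2 (0.48), Abcg1 (1.86), Srebf2 (-0.11), Mertk (1.26) and Cx3cr1 (-3.14). The cause was not tested. The 31 H3K27ac calls became 20 with the replicate block, 17 within 500 bp of the start and 0 to 1270 without a replicate. The interaction of the number of Pol II regions was -2834 with the common density floor and -102 with a stricter one (803.5 to 1735 without a replicate), the covered length 5.84 to 21.8 Mb and the tag share -3.0 to 2.93 percentage points.

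Libraries with the same replicate number did not deviate together (correlations of -0.07 to 0.07 over 18 pairs, against -0.14 to 0.10 over 36 pairs with different numbers). No pairing by number was seen, which cannot show that the numbers share no animal or culture. The replicate block gave 557 Pol II calls. Reads per gene could not be recovered from the rounded values.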

Other observations

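The 0 h libraries enter both the 1 h and the 18 h change, so these values only stand side by side. Nos2 had an interaction of -2.38 at 1 h and 0.78 at 18 h (adjusted p = 0.093). Mx1 had -0.91 and -0.05, and Irf8 -1.21 and 0.05. Arhgap18 had 2.72 at 1 h and -0.51 at 18 h (limma adjusted p = 0.046). Itgam had -0.68 and -1.31, with means at 18 h of 800.7 tags in KO and 1796 in WT.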
